A study of Mus musculus with 14 samples.

Results

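The sites described here are the genomic positions at which all 6 deposited Homeostasis peak lists, 3 from BMI1 and 3 from H2AK119ub chromatin immunoprecipitation with sequencing (ChIP-seq), hold a peak. Overlapping peaks of the 6 lists were merged when they shared at least 1 bp, regions with a peak in every list were kept, and regions on tRNA or 5S rRNA genes whose RefSeq symbols start with n-T or n-R5s were dropped. This left 1160 of 17310 merged regions (6.70%), of which 1159 lie on assembled chromosomes of GRCm38. Before the tRNA and 5S genes were dropped, 1243 regions were in all 6 lists. Membership was decided by the lists themselves, so presence, share of a list, peak width and peak centre at these sites are given as descriptions with no test. The rule treats both antibodies alike and does not use the order of entries. The difference between antibodies in each site's rank by place was tested.

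The cells came from hearts of C57BL/6 mice aged 6 to 8 weeks and were enriched for a Sca1+CD45- population by magnetic sorting. Homeostasis mice received PBS only. Damage mice were given paraquat, a redox-cycling herbicide, once at 20 mg/kg into the peritoneum. Each combination of treatment and antibody has 3 libraries, and 2 Input libraries were not analysed here. The labels describe culture of the sorted cells and do not say whether the chromatin was taken before or after it. No label ties a replicate to a mouse of its own, so p-values measure only the spread between these libraries. Peak lists hold no expression values, and the sorted cell type could not be checked against its markers.

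BMI1 is a core subunit of Polycomb repressive complex 1 (PRC1), which represses genes during development and in stem cells. The RING1 subunits of PRC1 add a single ubiquitin to a lysine in the tail of histone H2A, and this mark, H2AK119ub, is what the other antibody detects. Both are best known at CpG-rich promoters of developmental regulators such as the HOX genes, and Cdkn2a, which encodes cell cycle inhibitors, is a classic BMI1 target.

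Sequence was at hand only where a site overlaps an entry of the RefSeq promoter or miRNA tables for GRCm38, and the stretches below are shown because they are the letters under shared sites. For Tpcn2, which encodes an endolysosomal two-pore channel, the 250 bases before the start are shown, the upstream part of a window of 300 bases, at chr7:145284012-145284261 on the minus strand. The first 87 bases lie within the site chr7:145284175-145284284, and the capitals mark a tandem repeat of 56 bases. The mature miRNA miR-6236 is chr9:110281353-110281371 on the plus strand, lies whole within the site chr9:110281265-110281371, and is printed with its seed (bases 2 to 8) in capitals. The Gm46178 stretch is the 19 bases that its window on chromosome 1 shares with the site chr1:191120933-191121038. The Lilr4b stretch is chr10:51480362-51480420 on the plus strand and belongs to a region in exactly 5 lists, just outside the rule; its capitals mark a repeat of 18 bases.
Tpcn2: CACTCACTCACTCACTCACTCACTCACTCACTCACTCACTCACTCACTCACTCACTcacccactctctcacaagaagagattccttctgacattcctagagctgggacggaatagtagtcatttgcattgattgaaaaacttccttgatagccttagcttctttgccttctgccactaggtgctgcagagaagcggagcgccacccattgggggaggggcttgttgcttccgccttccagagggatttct
miR-6236: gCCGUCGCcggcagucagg
Gm46178: CCCAGTGCTCTGAATGTCA
Lilr4b: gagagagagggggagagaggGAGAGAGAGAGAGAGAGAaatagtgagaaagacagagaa

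The motif CACTCACTCACT, chosen after the Tpcn2 window was seen, occurred on either strand in 7 of 32851 promoter windows (0.0213%), and Tpcn2 is 1 of them. None of the other motifs, searched on both strands of the whole 300 bases, occurred in the Tpcn2 or Gm46178 windows. These were CACACACA, held by 4.09% of all windows, GAGAGAGA (3.93%), TGACTCA (5.20%), CACGTG (7.15%), CCGGAAGT (3.89%), the CTCF core (2.43%) and the B box of tRNA genes (0.0457%). A motif match or its absence describes only the letters of the window. The Tpcn2 site was entry 1450, 235 and 387 in BMI1 lists 1 to 3 and entry 448, 297 and 293 in H2AK119ub lists 1 to 3, and the miR-6236 site was entry 103, 68, 38, 31, 62 and 37 in the same order. The miR-6236 site was therefore among the earlier entries of every list, whereas the Tpcn2 site was deeper in them.

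The sites made up very different shares of the 6 lists, because the lists differ in length. The BMI1 lists hold 5020, 7513 and 4072 peaks, and 23.2%, 15.5% and 28.6% of these were at the sites. The H2AK119ub lists hold 2000, 13487 and 7523 peaks, and 58.1%, 8.70% and 15.5% of these were at the sites. The mean share was 22.4% ± 6.57 for BMI1 and 27.4% ± 26.8 for H2AK119ub (SD, n = 3 each), and it follows from list length, since every list has 1162 to 1173 peaks at the sites. H2AK119ub replicate 1, the shortest list, set much of the membership: of the 1211 regions in exactly 5 lists, 903 (74.6%) lacked a peak in that list, against 130 for BMI1 replicate 1, 114 for BMI1 replicate 3 and 6 to 44 for the others.

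The sites stood in the earlier part of 5 lists and near the middle of H2AK119ub replicate 1. What the order of entries records is not given in the sources used here, so the place of a peak is given as its entry number, counted from the top of the list, or as a percent of the list's length. The median place of the sites was 25.1%, 11.8% and 29.1% in the BMI1 lists and 46.5%, 5.89% and 13.2% in the H2AK119ub lists. Regions in exactly 1 list had median places of 60.6%, 77.8% and 66.6% in the BMI1 lists and 61.9%, 73.8% and 76.7% in the H2AK119ub lists. By these medians the sites preceded them in every list, and they also preceded regions in exactly 5 lists, whose medians ran from 15.7% to 65.4%. H2AK119ub replicate 1 did not follow the number of lists: its 28 regions in exactly 2 lists (35.3%) and 86 in exactly 3 (29.4%) stood earlier than the sites (46.5%), and its 5-list regions (65.4%) stood later than those found in that list alone (61.9%). In that list 9.05% of the sites were among the first 10% of entries and 7.41% among the last 10%.

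**Figure D1:**
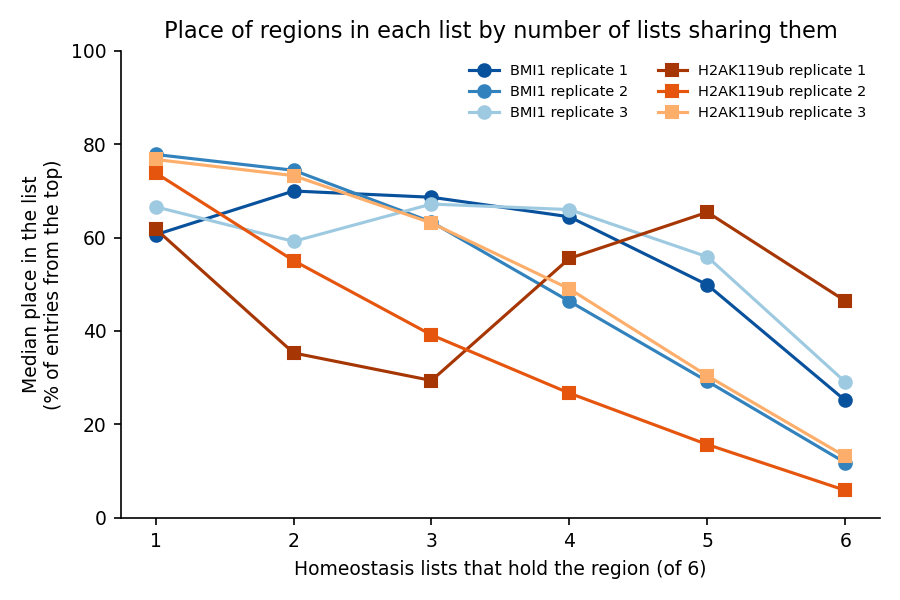
Median place in each Homeostasis list (percent of entries from the top, vertical axis) of regions held by 1 to 6 lists (horizontal axis), with a line for each list. In 5 lists the line is lowest for regions held by all 6 lists, at 5.89% to 29.1%; in H2AK119ub replicate 1 it is lowest for regions held by 3 lists (29.4%) and stands at 46.5% for those held by all 6.

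The earliest sites were at chromosome ends. Mouse chromosomes are acrocentric, so the high-coordinate end of each is the telomere of the long arm. A site was counted as terminal when it lay beyond the last gene annotated on its chromosome. Of the 24 Homeostasis regions beyond the last gene, 8 were in all 6 lists (33.3%, against 6.77% of all regions off tRNA and 5S genes). Ordering the sites by their latest place in any list, a choice made after the values were seen, put 7 of these 8 among the first 10 sites.

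The site chr7:145341101-145341259, 17.0 kb beyond Mrgprd, was entry 3, 3 and 3 in the BMI1 lists and 2, 1 and 2 in the H2AK119ub lists. The site chr12:120028859-120029008, 7.62 kb beyond Tmem196, was entry 2, 2 and 2 and then 5, 2 and 1. The site chr13:120321499-120321626, 3.24 kb beyond Tcstv3, was entry 8, 8 and 9 and then 1, 8 and 8. In these 3 sites no entry was later than 9 in any list, for either antibody.

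The site chr2:182012867-182013092, 11.8 kb beyond Gm14496, was entry 9, 10 and 17 in the BMI1 lists and 6, 10 and 16 in the H2AK119ub lists. The site chr10:130594807-130594935, 1.91 kb beyond the pseudogene Ftl1-ps2, was entry 14, 13 and 14 and then 13, 14 and 13. The site X:170881080-170881186, 203 kb beyond Asmt, which encodes the last enzyme of melatonin synthesis, was entry 18, 14 and 18 and then 14, 15 and 14. Entry numbers at these sites overlapped between the antibodies. The site chr17:94887045-94887263, 7.12 kb beyond Gm20939, came later, at entry 101, 36 and 129 and then 39, 27 and 41, and had the largest median peak width of all sites (160 bp). Its peaks were 196, 159 and 152 bp wide in the BMI1 lists and 101, 161 and 163 bp in the H2AK119ub lists.

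Among the first 20 entries, 15 lay beyond the last gene in every Homeostasis list but H2AK119ub replicate 1, where 9 did. Of all peaks of a list on assembled chromosomes such peaks made up 0.141% to 0.653%. Altogether 18 of 21 chromosomes had their last Homeostasis region beyond the last gene, and that region was in all 6 lists on 8 chromosomes, in exactly 5 on 8 and in fewer on 2. On chromosome 14 the rule divided the end by antibody: chr14:124801749-124801850 was the first entry of each BMI1 list and was in no H2AK119ub list, and the adjacent region chr14:124801917-124802060 was entry 3, 6 and 6 of the H2AK119ub lists and in no BMI1 list. None of the 24 terminal regions had a peak in a Damage list. Damage lists did hold peaks beyond the last gene at other positions. There were 2 in Damage BMI1 replicate 3 (4.35% of its peaks on assembled chromosomes) and 0 in BMI1 replicates 1 and 2. Damage H2AK119ub replicates 1 to 3 held 3, 2 and 1 (9.68%, 2.94% and 4.17% of such peaks).

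**Figure D2:**
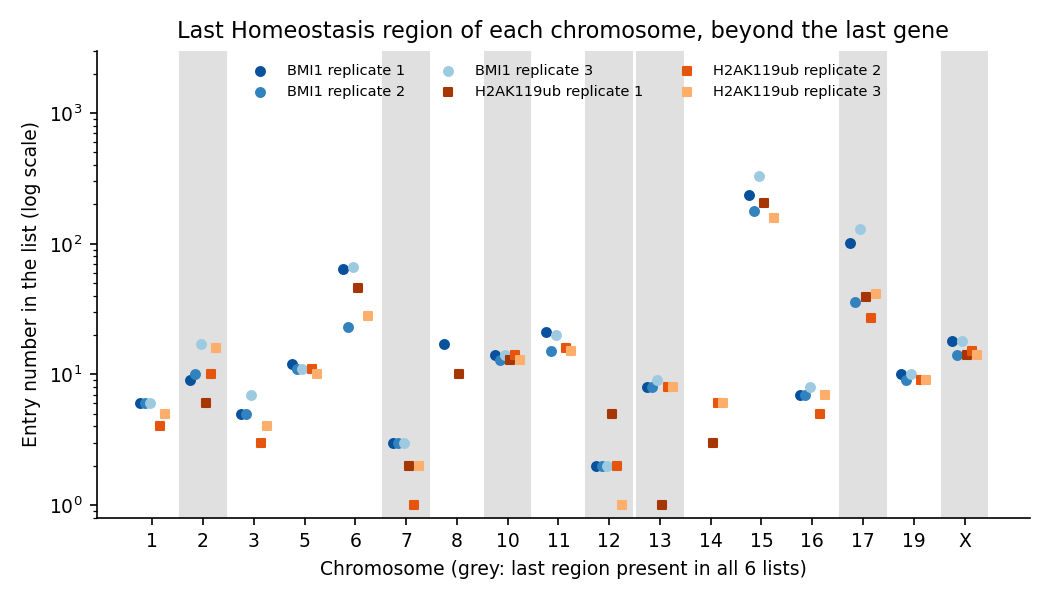
Entry number (log scale, vertical axis) in each Homeostasis list of the last region on each chromosome where it lies beyond the last gene (chromosome 18 not drawn). Grey bands mark regions present in all 6 lists; on chromosomes 7 and 12 no entry is later than 5, and on chromosome 17 entries run from 27 to 129.

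Other early sites included some in no annotated gene and some in pseudogenes, lncRNAs and protein-coding genes, of which a few are given. The site chr2:57629492-57629729, in no gene, was entry 16, 18 and 27 in the BMI1 lists and 7, 13 and 19 in the H2AK119ub lists. The site chr17:39847564-39847925 lies in Rn18s-rs5, an annotated pseudogene related to 18S ribosomal RNA, and merges 7 peaks over 362 bp. It was entry 11, 17 and 5 in the BMI1 lists and 8, 20 and 12 in the H2AK119ub lists. A site in Lars2, which encodes mitochondrial leucyl-tRNA synthetase, at chr9:123461939-123462050 was entry 46, 27 and 15 and then 19, 30 and 22. The site chr11:109011780-109011969 in the lncRNA Gm36876 was entry 29, 21 and 12 and then 11, 25 and 18. Values for both antibodies overlapped at each of these sites. By biotype, 5 sites were on rRNA genes not named n-R5s (Gm25018, Gm26391, Gm25212, Gm22291 and Gm23284, on chromosome 8), which the symbol filter left in. The filter went by symbol only, so 5S rRNA copies under other symbols may remain among the sites. The latest places of these 5 sites ran from 33.2% to 73.1%, so they were not among the early entries of every list. Another 2 sites were on snRNA genes (Gm25813 and Gm23971), 2 in Igh and 1 in Igk, which are antibody gene loci. Gene copies this alike can share reads, so which copy a peak belongs to is uncertain.

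Most peaks at the sites were no wider than 101 bp, the commonest width of every list, and lay close together in both antibodies' lists. Sites were narrow: their median width was 120 bp, with a range of 101 to 398 bp, and 1133 of 1160 had 1 peak per list. The median peak width at the sites was 101 bp in every list. Peaks wider than 101 bp were 6.19%, 17.3% and 11.5% of those at the sites in the BMI1 lists and 1.81%, 29.9% and 18.7% in the H2AK119ub lists, so the groups overlapped. Over the whole lists such peaks were 2.35%, 3.82% and 4.52% for BMI1 and 2%, 5.03% and 4.28% for H2AK119ub. Wider peaks were thus commoner at the sites than over the whole list in every list but H2AK119ub replicate 1. The means at the sites were 11.7% ± 5.56 for BMI1 and 16.8% ± 14.2 for H2AK119ub (SD, n = 3 each). The typical peak centre lay 5.5, 4.2 and 5.6 bp from the mean centre of the other lists for BMI1 and 6.4, 4.4 and 4.8 bp for H2AK119ub, which gave 5.1 ± 0.781 and 5.2 ± 1.06 bp (SD, n = 3 each). The rule bounds these distances, because peaks had to overlap. Across the 6 lists the centres of a site spanned a median of 17.5 bp. They lay within 10 bp of each other at 288 sites (24.8%) and over more than 100 bp at 77. After chr17:94887045-94887263, the sites with the largest median peak width were X:159206029-159206205, 49.5 kb from Rps6ka3 (150.5 bp), chr9:41052305-41052465 in Ubash3b (133.5 bp), chr4:45959533-45959752, 5.28 kb from Tdrd7 (131 bp), and chr2:178639235-178639477 in the lncRNA Gm40031 (129 bp). They were followed by chr2:28459599-28459798, 2.20 kb from 1700007K13Rik (127.5 bp), chr2:57629492-57629729, 259 kb from Gpd2 (124 bp), and, last of the 8, chr11:25100073-25100228, 927 kb from Bcl11a. At all 8 the peak in H2AK119ub replicate 1 was 101 bp wide. The tightest site, chr9:115350828-115350928 in the lncRNA Gm30762, had the same coordinates in all 6 lists and was entry 27, 19 and 25 and then 22, 18 and 20.

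Pairs of lists from the same antibody and from different antibodies had overlapping values. The Spearman correlation of place across the sites, which share their libraries and were chosen by them, averaged 0.696 ± 0.0430 (SD) over 6 same-antibody pairs and 0.699 ± 0.0444 over 9 different-antibody pairs. The difference was -0.00284, with an exact permutation p = 1 over the 10 ways to part the 6 lists. The median distance between centres was 6.08 ± 1.11 bp in same-antibody pairs and 6.11 ± 1.17 bp in different-antibody pairs. For a test of each site, the 1243 regions in all 6 lists were ranked by place within each list. Limma on these ranks, with Benjamini-Hochberg adjustment over all 1243 regions, called 0 sites in either direction (0% of all tested). An unadjusted p under 0.05 was found at 38 sites. All 3 H2AK119ub ranks were earlier than all 3 BMI1 ranks at 54 sites, 4.66% of the members and 4.42% of all regions tested. They were later at 41, 3.53% of the members and 3.3% of all regions tested. These ranks are not entry numbers or percents of list length, which can overlap between antibodies at such sites. With 3 lists per antibody these tests do not show that the antibodies act alike.

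**Figure D3:**
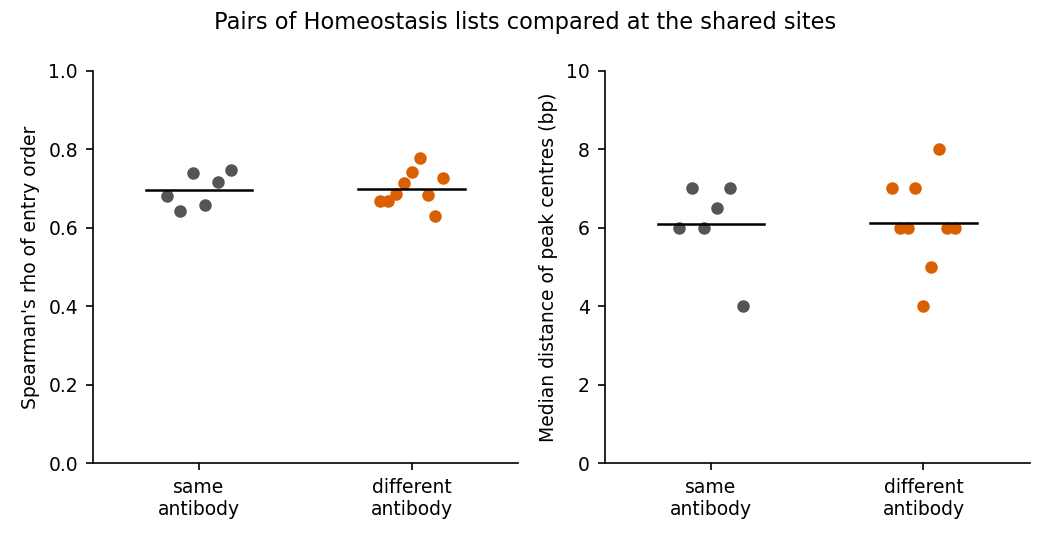
Each point is a pair of Homeostasis lists, from the same antibody (6 pairs) or from different antibodies (9 pairs), plotted by the Spearman correlation of place and by the median distance between peak centres in bp, over the 1160 sites. Correlations lie between 0.643 and 0.746 for the same antibody and between 0.631 and 0.776 for different antibodies, so the groups overlap.

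Few sites were near the gene starts given among the promoter windows. These windows lack some genes and give no start on chromosome 18, whose 44 sites have no distance. Of 1159 sites, 499 (43.1%, exact binomial 95% interval 40.2 to 46.0) lay in an annotated gene and 380 (32.8%, 30.1 to 35.6) in a protein-coding gene. Regions in exactly 1 to 5 lists lay in a protein-coding gene at 35.2%, 34.0%, 33.8%, 35.9% and 31.0%. The share within 1 kb of a start site was 2.33% at the sites (26 of 1115 with a distance, interval 1.53 to 3.40) and 1.75%, 1.53%, 2.27%, 2.26% and 1.99% in regions of 1 to 5 lists. The median distance to a listed start site was 42.2 kb at the sites and 45.2 to 52.6 kb in the other classes. Because starts are missing, these distances can be too long and the shares within 1 kb too low, in every class. For example, a site 129 bp from a boundary of Tdpoz3, a gene with no strand given, was 29.4 kb from the nearest listed start. The intervals cover counting error only, and the shares of the other classes lie within or close to them.

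**Figure D4:**
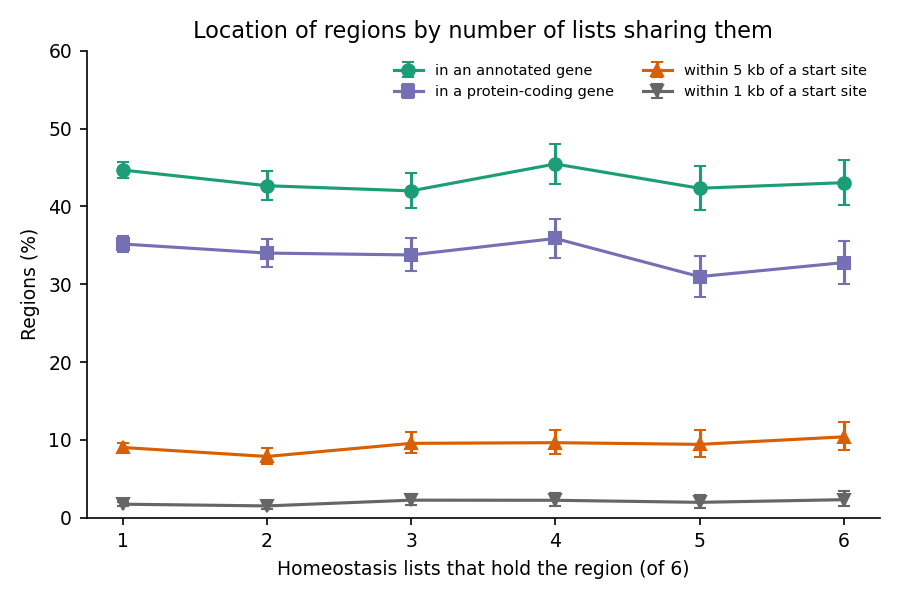
Percent of regions in an annotated gene, in a protein-coding gene and near a start site (vertical axis) by the number of Homeostasis lists that hold the region (horizontal axis), with exact binomial 95% intervals. Start sites are only those given among the promoter windows. The shares in protein-coding genes lie between 31.0% and 35.9% in all classes.

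A site lay within 1 kb of either boundary of a protein-coding gene at 26 positions, 10 of them inside the gene and 16 outside. Of these, 15 were on the start side of the gene and 4 on the end side. The other 7 were at genes with no strand given among the promoter windows. The closest site was at the start-side boundary of Tbxas1, which encodes thromboxane A synthase and here overlaps Hipk2. The next was in H4c1, a histone H4 gene, 115 bp inside its start side. The H4c1 site, chr13:23761028-23761134, was entry 558, 632 and 177 in the BMI1 lists and 594, 2104 and 103 in the H2AK119ub lists, with wide overlap. Sites were next found 129 bp from Tdpoz3, 164 bp from Tpcn2, 226 bp inside the amino acid transporter gene Slc38a5, 240 bp from the receptor gene Gpr141 and 291 bp from Depdc1a. A site lay 296 bp inside Trib3, a stress-induced pseudokinase gene. Further sites were near Gnl2 (328 bp), Kif2b (335 bp), Asb2 (428 bp), Trim29 (478 bp), Cmas (506 bp) and Lars2 (625 bp). The growth arrest gene Gas1 had a site 567 bp away, at chr13:60178102-60178227.

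Sites in genes were mostly in long genes. A site lay in the body of 352 of 21887 protein-coding genes (1.61%), and 441 (2.01%) had one in the body or within 5 kb. The median length of the 352 was 166 kb, against 17.2 kb for all. Among the 2189 longest genes 216 (9.87%) held a site, and among the 2189 shortest 1 did (0.0457%). Length was not separated from other features of these genes.

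A gene held 1 site in 323 cases, 2 sites in 25 and 3 sites in 4. The 4 with 3 sites were Hhat, Ppargc1a, Inpp4b and Sgcz, which are 258, 662, 792 and 1144 kb long. Hhat, the acyltransferase that attaches palmitate to Hedgehog ligands, held sites at chr1:192666167-192666354, chr1:192715915-192716125 and chr1:192728609-192728735. The first of them was entry 327, 266 and 492 in the BMI1 lists and 191, 112 and 200 in the H2AK119ub lists. All 3 H2AK119ub entries of that site were lower in number than the BMI1 entries, without allowance for list length. As a percent of list length, the places in the lists of the antibodies overlapped.

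Ppargc1a encodes PGC-1alpha, a coactivator of mitochondrial biogenesis. Its sites were chr5:51959540-51959680, chr5:52091748-52091929 and chr5:52108985-52109099, and the last was entry 2258, 788 and 1246 and then 397, 1768 and 730. Inpp4b encodes a phosphoinositide phosphatase, and its site chr8:81829598-81829739 was entry 627, 365 and 590 and then 414, 195 and 375. Sgcz encodes zeta-sarcoglycan of the dystrophin complex, and its site chr8:38175481-38175584 was entry 416, 106 and 183 and then 237, 114 and 180. Within each of these genes the latest places of the sites differed: in Sgcz the latest place was 11.8% for chr8:38175481-38175584 and 97.8% for chr8:38037134-38037237. The 97.8% is entry 1957 of the 2000 in H2AK119ub replicate 1. The same site was entry 1485, 2516 and 1551 in the BMI1 lists and 2173 and 1408 in H2AK119ub replicates 2 and 3, which are longer lists. With chromosome 18 left out, ranking genes with 2 sites by sites per kb named Slc7a14, Cfap20dc, Phex, Phactr2, Gpm6a, Mapk10, Adam12, Kcnip1, Ntrk3 and Plxdc2 next. These include a neurotrophin receptor gene (Ntrk3) and a stress kinase gene (Mapk10).

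**Figure D5:**
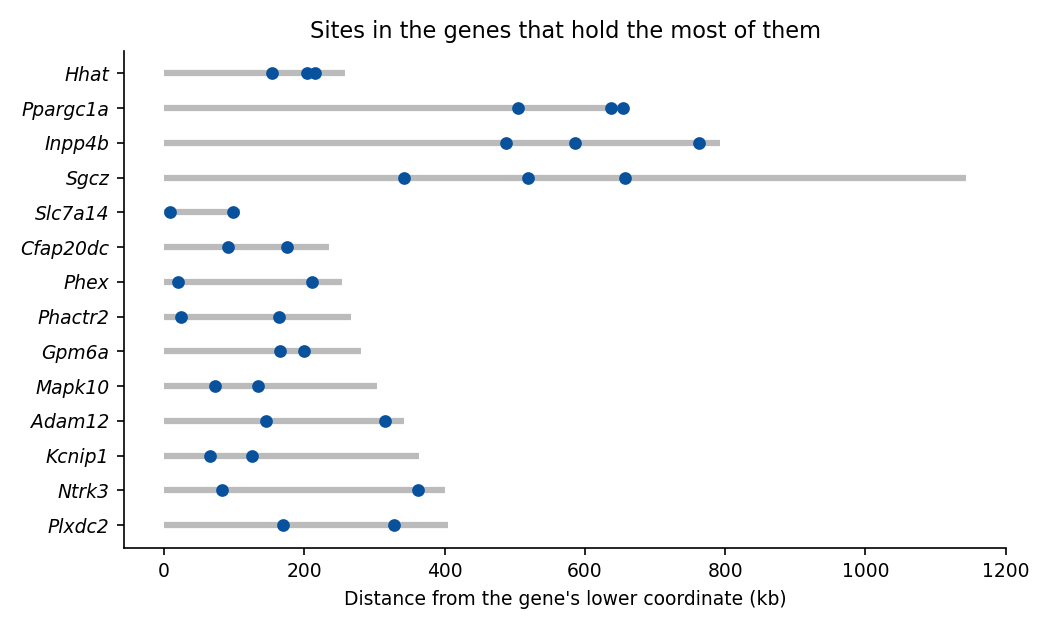
Position of each site (point) along the protein-coding genes with the most sites (chromosome 18 not drawn), as distance from the gene's lower coordinate in kb. The bar is the gene. Lengths of the genes drawn run from 108 kb for Slc7a14 to 1144 kb for Sgcz, and the sites are spread along the genes.

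Of 242 genes in 11 lists, 4 held a site in the body (1.65%), near the 1.61% of all protein-coding genes. In the 5 lists of PRC1 and PRC2 subunits, INK4 and p53 cell cycle genes, HOX genes and developmental factors 1 of 132 genes did (0.758%). None of 20 PRC1 genes, 15 INK4 and p53 pathway genes, 39 HOX genes or 46 developmental transcription factor genes held one. Of 12 PRC2 genes 1 did: Jarid2, an accessory subunit, had the site chr13:44836007-44836121, which was entry 2451, 1877 and 1558 in the BMI1 lists and 1241, 1599 and 2259 in the H2AK119ub lists. Cdkn2a was 448 kb and Bmi1 734 kb from the nearest site, and neither held a Homeostasis peak. Against a median length of 17.2 kb for all protein-coding genes, the PRC1 and PRC2 genes are longer (27.0 and 31.8 kb), and the INK4 and p53 (10.5 kb), developmental factor (7.64 kb) and HOX genes (3.74 kb) are shorter. The part of length in these counts was not tested.

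In the 5 cell type lists 3 of 86 genes held a site (3.49%), against 1.61% of all protein-coding genes. The share rests on 3 genes. Median gene length was 39.5 kb in the endothelial, 34.8 kb in the smooth muscle and pericyte and 29.7 kb in the stromal list. It was 22.3 kb in the cardiomyocyte list, 10.9 kb in the leukocyte list and 17.2 kb for all protein-coding genes. The part of length in this share was not tested. Of 20 endothelial genes 2 held a site: Flt1, the VEGF receptor 1 gene, at chr5:147611461-147611589 (entry 385, 264 and 319 and then 431, 105 and 274), and Emcn, which encodes endomucin, at chr3:137381994-137382108 (entry 1660, 1917 and 3563 and then 839, 820 and 2282). Of 18 stromal genes 1 did: Pdgfra, a receptor gene of cardiac stromal cells, at chr5:75164038-75164145 (entry 926, 363 and 686 and then 605, 345 and 512). None of 15 smooth muscle and pericyte, 18 cardiomyocyte, 15 leukocyte or 24 redox genes held one. Entries overlapped between antibodies at Flt1, Emcn, Jarid2 and Pdgfra, and peak presence says nothing of whether these genes were expressed.

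Sites were spread over all chromosomes. Autosomes held 0.310 to 0.550 sites per Mb, X 0.257 (44 sites) and Y 0.517 (47 sites). The median latest place was 71.9% for sites on Y, against 49.4% on X and 52.4% over all sites. Latest place leans on H2AK119ub replicate 1, the shortest list, where the median place of the sites (46.5%) was later than in any other list. Sites were far apart, with a median of 784 kb to the nearest other site, and 20 had another within 20 kb.

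Almost none of the sites had a peak after paraquat. Damage lists are short, with 19, 27 and 47 peaks for BMI1 and 31, 68 and 25 for H2AK119ub. Of these, 0, 1 and 2 BMI1 peaks and 1, 1 and 0 H2AK119ub peaks were at the sites. The shares were 0%, 3.70% and 4.26% for BMI1 and 3.23%, 1.47% and 0% for H2AK119ub, and counting alone allows up to 7.92% to 19.0% in a list. The means were 2.65% ± 2.31 and 1.57% ± 1.61 (SD, n = 3 each), a difference of -1.09 percentage points (two-sided exact permutation test over 20 arrangements, p = 0.6; the smallest p this design allows is 0.1). It was -2.41 points without Damage BMI1 replicate 1, -1.92 without H2AK119ub replicate 1, -0.562 without BMI1 replicate 2, -0.286 without BMI1 replicate 3 and -0.305 without H2AK119ub replicate 3. A Damage peak was found at 5 of 1160 sites (0.431%, exact binomial 95% interval 0.140 to 1.00), against 0.0584% of all Homeostasis regions off tRNA and 5S genes, and none of the 5 was in more than 1 Damage list. In regions of exactly 1 to 5 lists the counts were 1 of 8647, 1 of 2714, 0 of 1910, 2 of 1482 and 1 of 1211. The gap in list length between Homeostasis and Damage limits what an absent Damage peak can show, and its source was not tested.

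The 5 sites with a Damage peak stood early, with latest places of 4.98% to 13.6%. The site chr2:60402746-60402850, 14.7 kb from the phospholipase A2 receptor gene Pla2r1, had a peak in Damage H2AK119ub replicate 1 and was entry 194, 42 and 54 in the Homeostasis BMI1 lists and 100, 452 and 202 in the H2AK119ub lists. The site chr14:88324776-88324887 in the lncRNA Gm33203 had a peak in Damage H2AK119ub replicate 2 and was entry 246, 75 and 334 and then 144, 56 and 94. The site chr16:56224766-56224878 in Impg2, a retinal matrix proteoglycan gene, and the intergenic site chr6:10186367-10186475 each had a peak in Damage BMI1 replicate 3. The Impg2 site was entry 296, 172 and 409 and then 171, 143 and 259. Each of these peaks was in a single list and has no replicate.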

How the data were processed

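Reads were aligned with Bowtie2 (version not given in the sources used here) to GRCm38 and HOMER 4.8 was used, per the submitters' processing notes. The authors deposited a peak list per library. The score in the deposited lists is 1 for every peak, so it ranks nothing, and only coordinates and the order of entries were used. Read depth is unknown.

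The members and the gene lists were chosen with earlier results of these data known. Peaks were merged and matched to RefSeq gene, promoter and miRNA tables of GRCm38 in Python 3.11.15 (numpy 2.4.6, pandas 2.3.3, scipy 1.17.1). Damage shares and pairs of lists were compared by two-sided exact permutation tests; the planned tests of peak width and centre are not used, since the rule bounds both, and places of sites were compared by limma 3.58.1 in R 4.3.3 on normal scores, tested on simulated data. Named were up to 15 genes with the most sites, the 8 widest sites and the tightest, and sites with a Damage peak. Also named were up to 15 genes with a site within 1 kb of either boundary, list genes with a site, Cdkn2a and Bmi1. The 44 sites on chromosome 18 were counted but are not described. Base composition and flanking sequence, planned at the start, were not analysed here for want of a genome sequence. Alternatives changed the overlap, the number of lists, the gene margin and the libraries used.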

Additional observations from a re-analysis of the deposited data

How the results depend on the processing

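The number of sites was 2371 when 5 lists sufficed, and 1162 to 2053 when a list was left out in turn, with 2053 without Homeostasis H2AK119ub replicate 1. The difference in centre offset between antibodies (0.1 bp) reversed to -0.0833 bp with 5 or more lists and to -0.223 bp with mean distances, and ran from -0.740 to 0.417 bp with a library left out. The share of sites in a gene was 46.9% with tRNA and 5S genes kept and 54.0% with a margin of 5 kb. The share of protein-coding genes with a site was 1.42% at an overlap of 50 bp, 3.03% with 5 or more lists and 2.01% with the margin. The count fell to 1155 when all rRNA genes were dropped and to 1152 without sites beyond the last gene, alternatives chosen after seeing the data. The cause of these shifts was not tested. Between libraries of the same replicate number the correlations of deviations were -0.00416, 0.110 and 0.0869. Other pairs are not given beside them, so these values do not show whether the libraries were paired. With the replicate block, the centre offset difference was 0.1 bp, the Damage share difference -1.09 points (exact permutation p = 0.75), the median width difference 0 bp, and limma called 0 sites, with 54 at an unadjusted p under 0.05. The lists give no read depth, so neither weak nor absent peaks can be weighed.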

Other observations

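Of 9 Homeostasis regions that share 50 or more bases with a promoter window, 8 (88.9%) held an exact tandem repeat of 16 or more bases in the shared stretch, against 399 of the 32851 stretches made of the first 100 bases of each window (1.21%). Of these 9 regions 6 were in a single list and 1, at Tpcn2, was in all 6, so the count rests almost wholly on regions outside the shared sites. Of 19 regions sharing any base, 10 held one. The repeat rule was chosen after the sequences were seen, the stretches differ in length, and the values are a description.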
